A study of Homo sapiens with 20 samples.

Results

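The ligands and receptors of blood vessel growth examined here were VEGFA, VEGFB, VEGFC, PGF, ANGPT1, ANGPT2, ANGPTL4, NRP1, NRP2 and KDR, chosen by gene symbol. All 10 were listed among the 24196 genes of the expression table. The table holds 8 libraries of orthotopic tumors of OVCAR8 cells, an established human line of ovarian cancer, in NSG mice, a strain without mature T, B or NK cells. Per the study's methods for the efficacy experiment, luciferase-tagged cells were injected into the ovarian fat pad of mice aged 6 weeks, and PBS or 1 mg/kg sodium gluconate was then given i.p. weekly over 35 days. There were 4 PBS tumors and 4 gluconate tumors, all from the same line, and 12 libraries of knockout and control cells in the series were not analysed here. The study's text describes these libraries as treated cells, but the sample labels name tumors, which is what they are called here. The labels number the replicates without saying whether each came from its own mouse, so p-values measure the spread between these libraries.

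VEGF ligands act on receptor tyrosine kinases of endothelial cells. VEGFA signals mainly through KDR (VEGFR2), VEGFB and PGF bind FLT1 (VEGFR1), and VEGFC acts through FLT4 (VEGFR3) on lymphatic vessels. NRP1 and NRP2 are co-receptors that bind VEGF ligands and class 3 semaphorins. ANGPT1 activates the endothelial receptor TEK (TIE2), and ANGPT2 can oppose it. ANGPTL4 is a secreted inhibitor of lipoprotein lipase that is induced by hypoxia and by PPAR receptors. In a xenograft the vessels are supplied by the mouse host, whereas the table lists human gene symbols, and how fragments from mouse cells were handled is not given in the sources used here.

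All 10 genes are annotated as protein-coding in GENCODE 29 on GRCh38, from which the positions were taken. VEGFA lies at chr6:43770184-43786487 on the plus strand, VEGFB at chr11:64234538-64238793 on the plus strand, VEGFC at chr4:176683538-176792727 on the minus strand and PGF at chr14:74941834-74955784 on the minus strand. ANGPTL4 lies at chr19:8363289-8374373 on the plus strand. The receptor gene KDR lies at chr4:55078259-55125595 on the minus strand, NRP1 at chr10:33177492-33336262 on the minus strand and NRP2 at chr2:205681990-205798133 on the plus strand.

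Start-site windows from RefSeq (GRCh38.p14) were held for 6 of the 10 genes. Those of 3 genes are printed, without any bases that GENCODE 29 annotates as exon: ANGPTL4, whose level varied most between tumors among the 6 genes tested, VEGFC, which had the largest difference in means among the VEGF ligands tested, and KDR, the main VEGFA receptor, which was barely detected. Capitals mark ACGTG or GCGTG, the core letters of the hypoxia response element, searched on both strands, so that a match on the other strand reads CACGT or CACGC. The sequences run 5′ to 3′ on the strand of the gene.
ANGPTL4, chr19:8363905-8364150, plus strand: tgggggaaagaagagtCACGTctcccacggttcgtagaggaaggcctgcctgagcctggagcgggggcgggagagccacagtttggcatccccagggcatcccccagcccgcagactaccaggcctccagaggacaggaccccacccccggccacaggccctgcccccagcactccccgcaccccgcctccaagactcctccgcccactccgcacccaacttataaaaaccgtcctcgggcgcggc
VEGFC, chr4:176792923-176793172, minus strand: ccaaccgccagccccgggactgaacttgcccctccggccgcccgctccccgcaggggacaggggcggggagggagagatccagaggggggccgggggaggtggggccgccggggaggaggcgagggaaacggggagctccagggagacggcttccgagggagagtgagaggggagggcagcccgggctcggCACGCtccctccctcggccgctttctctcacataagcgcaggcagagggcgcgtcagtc
KDR, chr4:55125596-55125845, minus strand: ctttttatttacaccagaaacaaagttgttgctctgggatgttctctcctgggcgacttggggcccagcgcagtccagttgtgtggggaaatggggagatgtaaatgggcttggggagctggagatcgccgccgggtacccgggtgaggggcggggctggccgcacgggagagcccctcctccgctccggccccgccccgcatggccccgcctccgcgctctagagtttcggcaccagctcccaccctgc
The ANGPTL4 window lies inside the annotated gene, because some of its transcripts start further upstream. It held 1 match to ACGTG, the VEGFC window held 1 match to GCGTG, and neither overlapped another match. The KDR window held neither motif in these letters. Of 27305 windows of 250 bases before RefSeq start sites, 18.7% held ACGTG, 31.9% held GCGTG and 43.1% held either. These matches describe the letters only.

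The libraries held 39325749 to 46551535 fragments, except PBS replicate 4, which held 3953206 and was 9.95 to 11.8 times shallower than the others. That library had 15514 genes above 0, against 19991 to 20251 in the others, and its log2 values correlated with theirs at an r of 0.938 to 0.951, against at least 0.980 among the others. Its markers differed too. COL1A1, a fibroblast collagen also made by carcinoma lines, was at 41.4 FPKM in that library, against 121 to 182 FPKM elsewhere. PAX8, a transcription factor of ovarian serous carcinoma, was present at 32.4 to 50.7 FPKM in all 8 libraries, lowest in PBS replicate 4, and KRT8 at 700 to 1051 FPKM, while MUC16 stood at or near 0. WT1, another marker of serous carcinoma, was at 6.58 FPKM in PBS replicate 4 against 1.07 to 1.82 FPKM elsewhere, and KRT7 at 124 against 185 to 393 FPKM. Differences of the 10 genes other than ANGPT2, and list medians, are therefore given with and without PBS replicate 4.

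The 10 genes ranged from VEGFB, above 88.9% of the listed genes by mean FPKM, to ANGPT2, above 2.76% of them. FPKM is per kilobase of gene length, so levels of different genes can be set side by side only as far as the lengths used hold. In mean log2(FPKM + 0.1), the order from high to low was VEGFB, ANGPTL4, VEGFA, VEGFC, NRP1, NRP2, ANGPT1, PGF, KDR and ANGPT2. Neighbours were compared within libraries with the two-sided exact sign-flip permutation test, adjusted over the 9 pairs. VEGFB and ANGPTL4 stood in this order in 5 of 8 libraries and did not differ beyond their spread (exact adjusted p = 0.105). ANGPTL4 and VEGFA stood in this order in 6 of 8 (exact adjusted p = 0.0603), and VEGFC and NRP1 in 5 of 8 (exact adjusted p = 0.609). VEGFA was above VEGFC in 7 of 8 libraries (exact adjusted p = 0.0352). KDR was above ANGPT2 in 7 of 8, but no p is given for this pair, which was included in the adjustment, because ANGPT2 had 2 fragments in all. The 4 other neighbouring pairs kept their order in 8 of 8 libraries (exact adjusted p = 0.0176). Without PBS replicate 4 the order of the means was the same, but ANGPTL4 over VEGFA then had an exact adjusted p of 0.0469 and VEGFA over VEGFC one of 0.0603, each in 6 of 7 libraries.

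**Figure D1:**
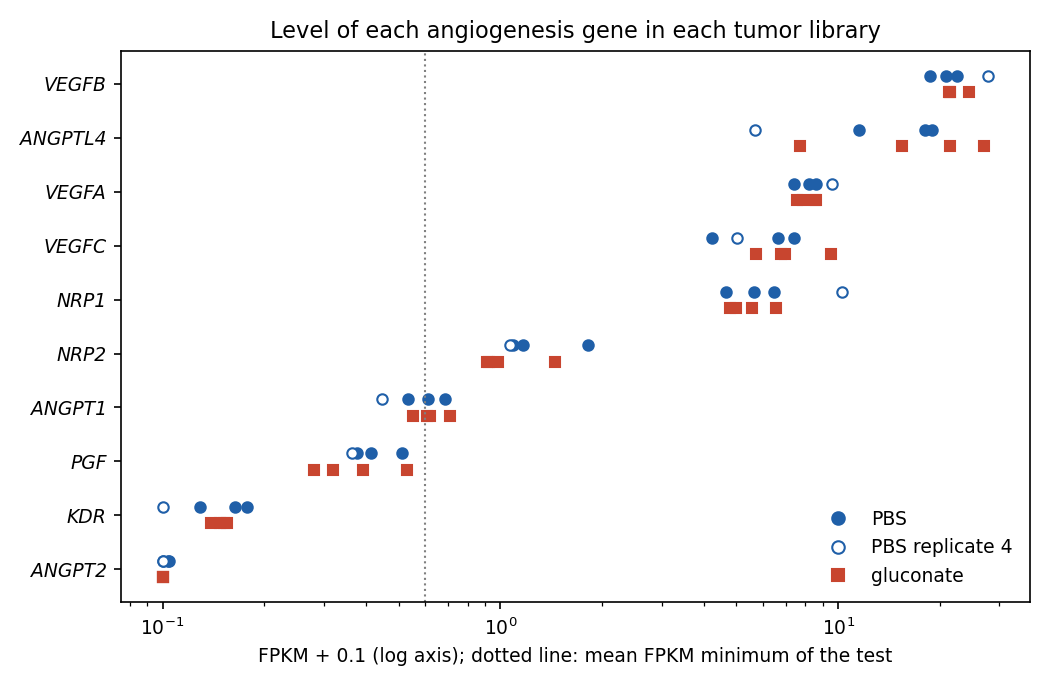
FPKM + 0.1 of each of the 10 genes on a log axis, with 1 point per tumor library. Circles are PBS (the open circle is PBS replicate 4), squares are gluconate and the dotted line is the mean FPKM minimum of 0.5. The points of the groups overlap for all 10 genes, and PGF, ANGPT1, ANGPT2 and KDR have means left of the line.

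Differences between gluconate and PBS tumors were tested with limma on log2(FPKM + 0.1) over the 12486 genes whose FPKM averaged 0.5 or more, as 6 of the 10 genes did. No gene had a Benjamini-Hochberg adjusted p under 0.05, neither among the 6 nor among all genes tested (0%). At an unadjusted p under 0.05, 0 of the 6 were called by limma and 0 by limma's voom on fragments, against 4.62% and 4.76% of all genes tested. With a 2-fold line added to limma's p, 0 of the 6 were called, against 0.296% of all genes. The groups overlapped for all 10 genes, while they did not overlap for 3.49% of all genes tested. Without PBS replicate 4, 7 of the 10 passed the minimum and 0 were called, against 6.21% of all genes by unadjusted p (3.36% lower and 2.85% higher) and 0.0878% with the 2-fold line.

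VEGFA, the central inducer of vessel sprouting, was measured at 8.09, 7.28, 8.52 and 9.46 FPKM in PBS replicates 1 to 4 and at 7.77, 7.47, 8.45 and 8.51 FPKM in gluconate replicates 1 to 4. The highest value was that of PBS replicate 4, and all gluconate values lay within the range of the PBS values. The PBS mean was 8.34 ± 0.908 and the gluconate mean 8.05 ± 0.513 FPKM (SD, n = 4 each), with a log2 fold change of -0.047 and a standard error of 0.10 (limma adjusted p = 0.875). The 95% confidence interval covered folds of 0.825 to 1.14. The log2 fold change was 0.015 once PBS replicate 4 was left out. Its spread within groups, an SD of 0.13 on the log2 scale, was wider than that of 22.0% of the genes tested.

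VEGFB, a ligand of FLT1 linked to fatty acid uptake, was the highest of the 10. It stood at 18.6, 20.8, 22.3 and 27.7 FPKM in the PBS libraries and at 21.2, 21.4, 21.3 and 24.2 FPKM in the gluconate libraries. The 3 lower gluconate values lay close together, and gluconate replicate 4 stood above them but below PBS replicate 4. The means of 22.4 ± 3.90 and 22.0 ± 1.47 FPKM (SD, n = 4 each) gave a log2 fold change of -0.0096 (SE 0.12, limma adjusted p = 0.983), with an interval of 0.823 to 1.20 in fold. Without PBS replicate 4 it was 0.099, with an interval from -0.085 to 0.28 on the log2 scale.

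VEGFC, the main growth factor of lymphatic vessels, was measured at 7.30, 6.53, 4.13 and 4.93 FPKM in PBS and at 6.85, 5.63, 6.69 and 9.44 FPKM in gluconate tumors. PBS replicates 3 and 4 were the lowest and gluconate replicate 4 the highest, while the other 5 libraries were interleaved. Means of 5.72 ± 1.45 and 7.15 ± 1.62 FPKM (SD, n = 4 each) gave a log2 fold change of 0.33 (SE 0.21, limma adjusted p = 0.740). Its interval covered folds of 0.909 to 1.73, and the two-sided exact permutation p was 0.229. Over the 7 libraries without PBS replicate 4, the log2 fold change was 0.27. The spread within groups was wider than that of 78.0% of the genes tested over 8 libraries and of 92.8% over these 7.

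PGF, a VEGF relative of placenta and tumors, was low. It was listed at 0.413, 0.315, 0.275 and 0.265 FPKM in PBS and at 0.182, 0.428, 0.293 and 0.220 FPKM in gluconate tumors. The highest and the lowest value were both from gluconate tumors. These values rested on 2 to 36 fragments per library, with 2 in PBS replicate 4, where the 95% Poisson interval ran from 0.0321 to 0.956 FPKM. PGF was below the minimum of the limma fit, and its difference in mean log2(FPKM + 0.1) was -0.16 (two-sided exact permutation p = 0.514), and -0.22 without PBS replicate 4 (exact p = 0.457).

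**Figure D2:**
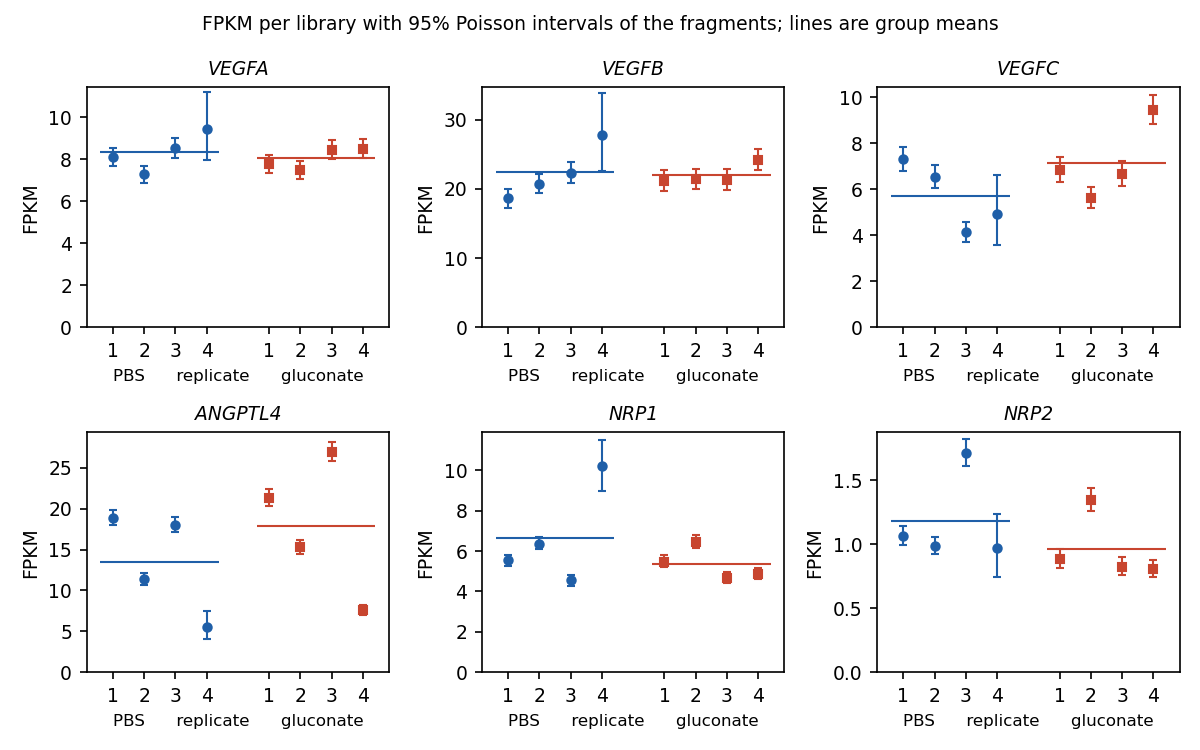
FPKM of the 6 tested genes in each library, with replicates 1 to 4 of PBS on the left and of gluconate on the right of each panel. Bars are 95% Poisson intervals of the fragments and lines are group means. PBS replicate 4 has the widest bars, and ANGPTL4 is spread from 5.56 to 27.0 FPKM within and across the groups.

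ANGPTL4 was the most variable of the 6. It stood at 18.9, 11.4, 18.0 and 5.56 FPKM in PBS replicates 1 to 4 and at 21.3, 15.4, 27.0 and 7.63 FPKM in gluconate replicates 1 to 4. The lowest value of each group was that of its replicate 4, and the highest tumor was 4.85 times the lowest. Its SD within groups of 0.80 on the log2 scale was wider than that of 96.9% of the genes tested, whose median was 0.21. PBS replicate 4 had 43 fragments, with a Poisson interval of 4.03 to 7.49 FPKM, and gluconate replicate 4 had 638 fragments, with an interval of 7.05 to 8.25 FPKM.

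The ANGPTL4 means of 13.5 ± 6.24 and 17.8 ± 8.28 FPKM (SD, n = 4 each) gave a log2 fold change of 0.41 (SE 0.46, limma adjusted p = 0.781). The interval ran from 0.652 to 2.69 in fold, so that it included both no change and a 2-fold difference. Without PBS replicate 4 the log2 fold change was 0.036, with an interval of 0.579 to 1.81 in fold. On fragments with voom it was 0.14.

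The angiopoietin genes lie on the minus strand, ANGPT1 at chr8:107249482-107498055 and ANGPT2 at chr8:6499651-6563409, and both were low. ANGPT1, the TEK agonist, was listed at 0.512, 0.433, 0.585 and 0.347 FPKM in PBS and at 0.607, 0.449, 0.506 and 0.519 FPKM in gluconate tumors. PBS replicate 4 was the lowest, with 6 fragments, and the other 7 libraries held 84 to 107. The difference in mean log2(FPKM + 0.1) was 0.14 (two-sided exact permutation p = 0.371), and without PBS replicate 4 limma gave a log2 fold change of 0.027 (adjusted p = 0.982). ANGPT2, which is made mainly by endothelial cells, was supported by 2 fragments in all, 1 each in PBS replicates 1 and 2. It was listed at 0 in the 6 other libraries, including all 4 gluconate tumors. Since 3 fragments correspond to 0.0122 to 0.0145 FPKM in the 7 deep libraries and to 0.144 FPKM in PBS replicate 4, no fold is given.

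KDR, the receptor of VEGFA, was listed at 0.0639, 0.0295, 0.0773 and 0 FPKM in PBS and at 0.0553, 0.0481, 0.0392 and 0.0521 FPKM in gluconate tumors. The 7 deep libraries held 8 to 18 fragments each, and PBS replicate 4 held 0, where 3 fragments, the limit that a count of 0 allows, were worth 0.130 FPKM. The difference in mean log2(FPKM + 0.1) was 0.093 (two-sided exact permutation p = 0.714) and turned to -0.066 without PBS replicate 4 (exact p = 0.629), and a difference was not detectable at this depth.

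NRP1, a co-receptor for VEGFA and semaphorin 3A, was measured at 5.54, 6.37, 4.54 and 10.2 FPKM in PBS and at 5.48, 6.46, 4.68 and 4.88 FPKM in gluconate tumors. PBS replicate 4 stood above all others, with a Poisson interval of 8.95 to 11.5 FPKM from 245 fragments, and the other 7 lay between 4.54 and 6.46. Means of 6.66 ± 2.47 and 5.37 ± 0.801 FPKM (SD, n = 4 each) gave a log2 fold change of -0.25 (SE 0.23, limma adjusted p = 0.747), with an interval of 0.592 to 1.20 in fold. It was -0.027 without PBS replicate 4, with an interval of 0.790 to 1.22 in fold.

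NRP2, a co-receptor for VEGFC and semaphorin 3F, was measured at 1.07, 0.991, 1.71 and 0.970 FPKM in PBS and at 0.886, 1.35, 0.826 and 0.810 FPKM in gluconate tumors. PBS replicate 3 and gluconate replicate 2 stood above the rest of their groups. Means of 1.19 ± 0.354 and 0.967 ± 0.255 FPKM (SD, n = 4 each) gave a log2 fold change of -0.26 (SE 0.24, limma adjusted p = 0.748), with an interval of 0.578 to 1.21 in fold. Without PBS replicate 4 it was -0.34, with an interval of 0.555 to 1.13 in fold. The fragments per library, 63 to 1123 for NRP2 and 245 to 1805 for NRP1, were closer than the FPKM, because the length recovered for NRP2 was 16433 bases and that for NRP1 6086. In PBS replicate 3, NRP2 had more fragments than NRP1 (1123 against 1103), so their order there rests on these lengths.

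**Figure D3:**
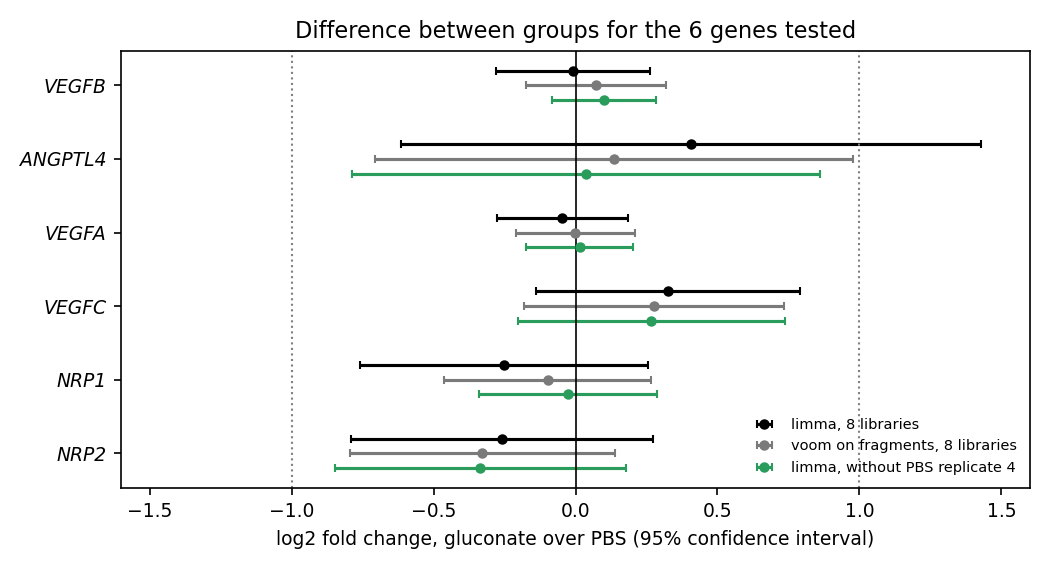
Log2 fold change of gluconate over PBS with 95% confidence intervals for the 6 tested genes, from limma on 8 libraries (black), voom on fragments (grey) and limma without PBS replicate 4 (green). Every interval shown includes 0, and only that of ANGPTL4 from limma on 8 libraries, up to 1.43, crosses a 2-fold line (dotted).

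Ratios of genes within a library were taken of FPKM + 0.1 on the log2 scale, and 4 of them were tested by two-sided exact permutation, adjusted over the 4. VEGFA over VEGFB differed by -0.037 on the log2 scale (exact p = 0.686, adjusted 0.952) and VEGFA over PGF by 0.11 (exact p = 0.714, adjusted 0.952). Without PBS replicate 4 these were -0.084 (exact p = 0.429, adjusted 0.610) and 0.24 (exact p = 0.457, adjusted 0.610). The ratio of ANGPT2 over ANGPT1, included in the adjustment, is not given because ANGPT2 had 2 fragments in all. NRP1 over NRP2 differed by 0.0096 (exact p = 0.971, adjusted 0.971) over 8 libraries and by 0.31 without PBS replicate 4 (exact p = 0.457, adjusted 0.610). In the log2 ratio of NRP1 over NRP2, PBS replicate 4 was the highest at 3.26 and PBS replicate 3 the lowest at 1.36.

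Levels across libraries were compared as a description. Over the 7 libraries without PBS replicate 4, the pair of tested genes with the highest r was VEGFA and VEGFB, at 0.382, and the lowest was VEGFA and NRP1, at -0.957. With all 8 libraries these were 0.720 and 0.267. The genes most like VEGFB over the 7 libraries were NUTF2 (r = 0.969), SMIM27 (r = 0.966) and CDK16 (r = 0.963), none of which kept a positive r over 8. For ANGPTL4 they were CLDN4, a tight junction protein (r = 0.952, and 0.928 over 8), OTULIN (0.943, and 0.401 over 8) and NUCB1-AS1 (0.937, and 0.926 over 8). For VEGFA they were BTBD9 and ARL6IP6 (both r = 0.966) and WDR13 (r = 0.959), all negative over 8. Each r was the highest out of 12486 genes over 7 points that share their libraries.

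Among receptors and partners of the pathway, 12 genes were listed and 6 tested, with 1 lower and 0 higher by unadjusted p and a median log2 fold change of -0.12, against 1.49% lower, 3.13% higher and a median of 0.069 over all genes tested. Scaling by median ratios gave 2.79% of all genes lower and 2.88% higher. The list median was -0.27 once PBS replicate 4 was dropped (-0.0029 for all genes), -0.023 without PBS replicate 3, and 0.0055 at a mean FPKM of 1 or more, so its sign was not stable. FLT4, the VEGFC receptor, was the best expressed VEGF receptor, at 4.29 to 6.84 FPKM in PBS and 3.67 to 5.86 FPKM in gluconate tumors (limma log2 fold change -0.24, adjusted p = 0.740), and its groups overlapped. FLT1 stood at 0.00726 to 0.0419 FPKM and TEK at 0.0104 to 0.159 FPKM. TIE1, an endothelial partner of TEK, was the gene at an unadjusted p under 0.05, with a log2 fold change of -1.28 (limma adjusted p = 0.740). It stood at 2.86 FPKM in PBS replicate 3 and 0.896 in PBS replicate 4, against 0.203 to 0.466 FPKM in the other 6 libraries, so that the groups overlapped. Its log2 fold change was -1.22 without PBS replicate 4, where it no longer had an unadjusted p under 0.05. In bulk tumors, fewer cells of a type and less RNA per cell cannot be told apart. GIPC1, a neuropilin-binding scaffold, was the highest of the list, at 50.5 to 62.1 FPKM.

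Endothelial markers were present at different levels. Of 10 markers in the table, 4 were tested, with 1 lower (1.49% of all genes) and 0 higher. Their median of -0.041 had no stable sign: it was -0.17 without PBS replicate 4, where ERG was also tested, 0.17 without PBS replicate 3, 0.078 without gluconate replicate 1 and 0.21 at a mean FPKM of 1 or more. CDH5, the VE-cadherin gene, was listed at 0 in all 4 PBS tumors and at 0.00568 to 0.0301 FPKM in gluconate tumors, on 9 fragments in all, and CLDN5 had 1 fragment in 8 libraries. VWF stood at 0.0286 to 0.0973, PECAM1 at 0.0688 to 0.563, MMRN2 at 0.0239 to 0.0990 and ERG at 0.121 to 0.805 FPKM. ESAM was the highest marker by mean, at 3.87 to 8.08 FPKM, ROBO4 stood at 3.31 to 8.56 and PLVAP at 1.10 to 2.50 FPKM. ECSCR, an endothelial cell surface protein, was measured at 0.723, 0.688, 2.38 and 1.23 FPKM in PBS and at 0.289, 0.385, 0.567 and 0.250 FPKM in gluconate tumors. Its groups did not overlap, as for 3.49% of all genes tested (limma log2 fold change -1.40, adjusted p = 0.740, and -1.36 without PBS replicate 4). ECSCR had only 233 fragments over the 8 libraries, and PBS replicate 3 was its highest library, as it was for TIE1 and NRP2. The summed endothelial markers, mostly ESAM, ROBO4 and PLVAP, ranged from 10.5 to 22.2 FPKM in PBS and from 10.4 to 16.6 FPKM in gluconate tumors. Those of mural cells ranged from 27.2 to 30.6 FPKM and from 24.7 to 30.8 FPKM. Across libraries, NRP2 followed the mean log2 level of the tested mural markers (r = 0.928 over 7 libraries and 0.915 over 8). It also followed that of the tested endothelial markers (0.710 and 0.714) and of the tested receptors and partners (0.878 and 0.873). VEGFC went against the mural markers (-0.921 and -0.869) and the receptors and partners (-0.936 and -0.738). These r were picked, after they were seen, from those of the 6 tested genes with the lists. The part of any cell type in the NRP2 or VEGFC values was not tested.

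Markers of other cells were counted in the same way. Of 8 mural cell markers in the table, 5 were tested, with 1 lower against 1.49% of all genes (ABCC9, log2 fold change -0.29, limma adjusted p = 0.740, and -0.22 without PBS replicate 4) and 0 higher, and CSPG4 was the highest at 10.7 to 16.0 FPKM. The ABCC9 groups did not overlap, as for 3.49% of all genes tested, at 3.54 to 4.50 FPKM in PBS and 2.85 to 3.39 FPKM in gluconate tumors. RGS5, at 0.119 to 0.262 FPKM, and MYH11, at 0.0108 to 0.291 FPKM, were below the minimum, and HIGD1B had 1 fragment in 8 libraries. The mural median was -0.096, and leaving out 1 library gave -0.25 (gluconate replicate 2) to 0.0099 (gluconate replicate 4), with -0.0030 without PBS replicate 4. Of 8 fibroblast markers, 5 were tested and 0 called, with a median of 0.49. The 8 summed to 132 to 193 FPKM, except for 46.4 FPKM in PBS replicate 4, and COL1A1 gave most of each sum. COL1A2 stood at 0 to 0.0678, DCN at 0.00306 to 0.0388 and THY1 at 0.0310 to 0.125 FPKM. FAP had the lowest p (log2 fold change 0.70, limma adjusted p = 0.740). Without PBS replicate 4, FAP was at 0.42 and the median at 0.20. Of 7 myeloid markers, 2 were tested and 0 called, with a median of -0.16 (-0.064 without PBS replicate 4, and 0.14 with no filter on low values, which adds the other 5), and CD68, a lysosomal protein that tumor cells can also make, was the highest at 19.7 to 28.1 FPKM beside PTPRC at 0 to 0.0165 FPKM. Of 10 ovarian carcinoma markers, 8 were tested, with 0 lower and 1 higher against 3.13% of all genes, KRT7 (log2 fold change 0.73, limma adjusted p = 0.740), and a median of 0.098. Leaving out PBS replicate 4 gave KRT7 0.48 and turned the median to -0.056.

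The other ligands and their regulators were described in the same way. Other angiogenic factors and receptors numbered 25, of which 19 were tested, with 0 lower and 1 higher (3.13% of all genes) and a median of 0.13, or 0.070 without PBS replicate 4. The gene higher was FGF2, a growth factor for endothelial cells, at 16.9, 9.87, 6.75 and 6.31 FPKM in PBS and 13.5, 11.7, 15.1 and 20.1 FPKM in gluconate tumors (limma log2 fold change 0.68, adjusted p = 0.740), and its groups overlapped. Leaving out PBS replicate 4, FGF2 stood at a log2 fold change of 0.50 and was not called. NOTCH1, at -0.26 without that library and -0.11 with it, then had an unadjusted p under 0.05 (limma adjusted p = 0.799). CCN1, a matrix protein that binds integrins, was the highest of the list at 152 to 266 FPKM. Of 11 inhibitors of angiogenesis, 8 were tested, with 0 lower and 3 higher (3.13% of all genes) and a median of 0.27, which was 0.064 without PBS replicate 4, where TIMP2 was no longer called. The 3 were THBS1, an antiangiogenic matrix protein (log2 fold change 0.58), COL18A1, the source of endostatin (0.37), and TIMP2, a metalloproteinase inhibitor (0.27), each with a limma adjusted p of 0.740. They stood at 0.38, 0.24 and 0.17 without PBS replicate 4. The COL18A1 groups did not overlap, as for 3.49% of all genes tested, at 3.10 to 4.72 FPKM in PBS and 4.98 to 5.93 FPKM in gluconate tumors.

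Class 3 semaphorins and plexins, whose ligands compete with VEGF for neuropilins, numbered 11, of which 10 were tested, with 0 lower and 2 higher (3.13% of all genes) and a median of 0.25. SEMA3B (log2 fold change 0.63) and PLXND1 (0.61) were the genes higher, each with a limma adjusted p of 0.740, and SEMA3D was the highest at 28.8 to 72.7 FPKM. PBS replicate 4 had the lowest SEMA3B and PLXND1, at 2.63 and 4.13 FPKM, and the highest SEMA3D. Without it, 1 gene of the list was lower (3.36% of all genes) and 3 were higher (2.85%) by unadjusted p, each with a limma adjusted p of 0.799, and the median was 0.062. The gene lower was SEMA3A, an NRP1 ligand (log2 fold change -0.80 without that library and -0.51 with it). The 3 higher were SEMA3B, PLXND1 and SEMA3F, an NRP2 ligand (0.51 without that library and 0.48 with it), with SEMA3B at 0.45 and PLXND1 at 0.38 without it. The SEMA3G groups did not overlap, as for 3.49% of all genes tested, at 0.300 to 0.714 FPKM in PBS and 0.739 to 0.971 FPKM in gluconate tumors. Its limma log2 fold change was 0.53 (adjusted p = 0.740), and 0.29 without PBS replicate 4.

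Hypoxia and PPAR signaling are known to induce VEGFA or ANGPTL4, and their genes were counted too. Of 9 hypoxia-inducible factors and regulators, 6 were tested and 0 called, with a median of 0.038 (0.022 without PBS replicate 4). HIF1A was the highest at 73.4 to 115 FPKM, and EPAS1 (HIF-2 alpha) had the lowest p (log2 fold change 0.34, limma adjusted p = 0.740, and 0.22 without PBS replicate 4). Of 26 hypoxia-induced genes, 25 were tested, with 0 lower and 2 higher (3.13% of all genes) and a median of -0.015 (0.012 without PBS replicate 4). LOX, a collagen crosslinking enzyme, was measured at 7.94, 9.81, 6.24 and 7.59 FPKM in PBS and at 10.3, 11.1, 10.5 and 12.0 FPKM in gluconate tumors. Its groups did not overlap, as for 3.49% of all genes tested (limma log2 fold change 0.49, adjusted p = 0.740, and 0.47 without PBS replicate 4). P4HA2, a collagen prolyl hydroxylase, had a log2 fold change of 0.27 (limma adjusted p = 0.740), and was not called without PBS replicate 4 (0.24). VLDLR, a lipoprotein receptor, was called without that library, by unadjusted p only (0.34, limma adjusted p = 0.799), against 0.11 over 8 libraries. ENO1, a glycolytic enzyme, was the highest at 845 to 964 FPKM. Of 10 PPAR target genes other than ANGPTL4, 6 were tested and 0 called, with a median of 0.17 (0.14 without PBS replicate 4), CPT1A at the lowest p (log2 fold change 0.60, limma adjusted p = 0.740, and 0.37 without that library) and ACADVL highest at 56.8 to 67.1 FPKM.

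**Figure D4:**
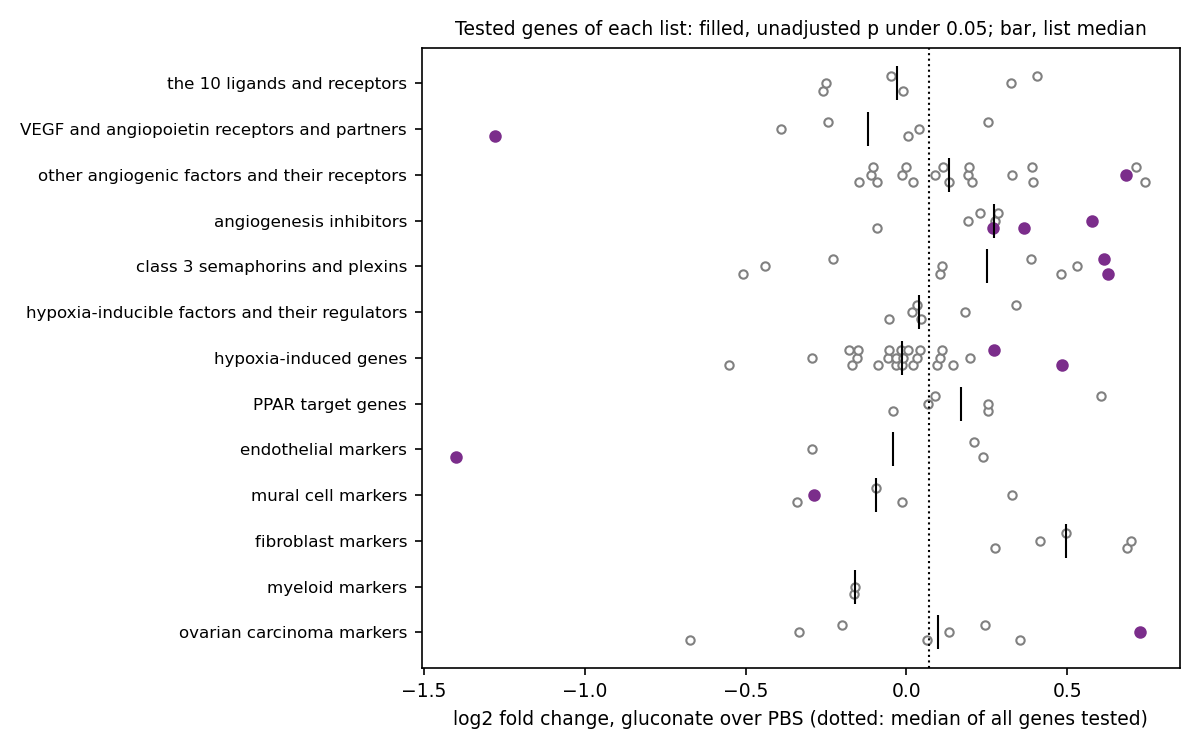
Log2 fold change of gluconate over PBS (limma, 8 libraries) for the tested genes of each list. Filled points have an unadjusted p under 0.05, bars are list medians and the dotted line is the median of all genes tested. No point of the 10 ligands and receptors is filled, and ECSCR and TIE1 lie farthest to the left.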

How the data were processed

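The authors deposited FPKM values (fragments scaled by gene length and by library size) of poly(A)-selected, paired-end RNA-seq. The submitters' processing notes name GRCh38, while the aligner, counter and annotation are not given in the sources used here. Columns headed C and T were read as PBS and gluconate from the axis of the study's plot of this comparison. The FPKM of 24196 genes were whole multiples of the value of 1 fragment (100% of values within 0.0001), and the fragments so recovered gave depths and 95% Poisson intervals, which cover counting error only.

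Differences were fitted with limma 3.58.1 in R 4.3.3 (lmFit, eBayes with trend) on log2(FPKM + 0.1), a scale that understates changes of low genes, for genes averaging 0.5 FPKM or more, and p-values were Benjamini-Hochberg adjusted over all genes tested. Single genes were compared by exact permutation over 70 splits (35 without PBS replicate 4). Python 3.11.15, numpy 2.4.6, scipy 1.17.1, pandas 2.3.3 and matplotlib 3.10.9 were used, and the fits were tested on simulated data. Alternatives were other pseudocounts, filters and scalings, voom, array weights, blocking on the replicate number, and dropping each library in turn. Voom without PBS replicate 4 was added after seeing the data.

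The 10 genes and the lists were chosen with earlier results of these data known. Named from each list were the gene with the highest mean FPKM, the gene with the lowest p and any with an unadjusted p under 0.05, and for the 3 highest of the 10 genes, the 3 most correlated genes. Other genes (FLT1, FLT4, TEK, the endothelial markers other than ESAM and ECSCR, RGS5, MYH11, HIGD1B, COL1A2, DCN, THY1, SEMA3G, PTPRC, PAX8, WT1, MUC16, and NOTCH1, SEMA3A, SEMA3F and VLDLR from the fit without PBS replicate 4) were chosen after their values were seen.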

Additional observations from a re-analysis of the deposited data

Results flagged for a closer look

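In each group of 4, the sample farthest from the others was compared with the range of the group, over 54 groups of values, of which 4 passed the 95% critical value of Dixon's test. Chance gives about 1 in 20 groups, or 2.7 here. VEGFB in gluconate replicate 4 stood at 24.2 FPKM, against 21.2 to 21.4 in the other gluconate libraries. NRP2 in PBS replicate 3 stood at 1.71 FPKM, against 0.970 to 1.07 in the other PBS libraries, and NRP2 in gluconate replicate 2 at 1.35 FPKM, against 0.810 to 0.886. The depth of PBS replicate 4, 3953206 fragments, stood apart from the 39895393 to 46551535 fragments of the other PBS libraries.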

How the results depend on the processing

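Under every alternative run, 0 of the genes fitted, 6 or 7 of the 10 and all 10 with no filter, had an adjusted p under 0.05. The log2 fold change of VEGFA changed sign with array weights (0.044) and with voom without PBS replicate 4 (0.018), and leave-one-out fits ranged from -0.11 to 0.015, the highest being without PBS replicate 4. That of VEGFB changed sign with voom (0.072), array weights (0.091), voom without PBS replicate 4 (0.10) and in leave-one-out fits, which ranged from -0.092 to 0.099. KDR, at the limit of detection, ranged over leave-one-out settings from -0.066 without PBS replicate 4 to 0.21, and was 0.55 with a pseudocount of 0.01. Leaving out 1 library gave ANGPTL4 0.036 to 0.76, NRP1 -0.41 to -0.027, VEGFC 0.18 to 0.45 and NRP2 -0.42 to -0.082, the last without PBS replicate 3. The difference in mean log2(FPKM + 0.1) then ran from -0.33 to -0.029 for PGF and from 0.027 to 0.23 for ANGPT1. NRP1 over NRP2 was -0.075 with a pseudocount of 1, and leave-one-out values ran from -0.33 to 0.31 for NRP1 over NRP2, from -0.084 to 0.033 for VEGFA over VEGFB and from -0.0034 to 0.32 for VEGFA over PGF. List medians that changed sign under some alternative were those of the receptors and partners, the endothelial, mural, myeloid and ovarian carcinoma markers, the hypoxia-induced genes (-0.092 to 0.064) and the hypoxia-inducible factors (-0.027 to 0.079). Of 104 list genes tested, 3 were lower and 9 higher at an unadjusted p under 0.05, against 1.49% and 3.13% of all genes. With the FPKM minimum raised to 1, 1 was lower, against 1.51%. Leaving out 1 library gave 2 to 5 lower and 2 to 14 higher, against 0.874% to 3.36% and 1.27% to 7.43% of all genes.

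Deviations of replicates with the same number had an r of -0.178 to 0.165, against -0.21 to 0.163 for unlike numbers, so the number was not taken as a pairing. Of the 4 PBS libraries, 2 correlated best with the gluconate library of their own number. With the replicate block, 1 of the 6 genes fitted, ANGPTL4, had an unadjusted p under 0.05 (log2 fold change 0.41), against 3.76% of all genes, gluconate being higher in 4 of 4 same-numbered pairs, and 4 list genes were higher, against 2.43%. The exact test within 4 pairs cannot give a p under 0.125. Depth limits PBS replicate 4 most: 43 fragments of ANGPTL4, 6 of ANGPT1 and 2 of PGF.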
